A study of Mus musculus with 8 samples.

Results

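Th17 cells, the CD4 T cells that make IL-17, are set up by a small group of transcription factors. The transcripts of 8 of these factors (Rora, Batf, Irf4, Maf, Stat3, Nfkbiz, Rbpj and Bhlhe40) were looked for by gene symbol in a table of 19703 genes from mouse regulatory T cells (Tregs) held under Th17-favouring conditions. The genes were chosen with earlier results of these data known, so no p-value over the set is given. Values were at hand for 6 of the 8, and Nfkbiz and Rbpj were not analysed here. All 6 were among the 11083 genes tested, those whose normalized count averaged 10 or more. A normalized count is a gene's read count divided by a size factor of its library.

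Tregs are CD4 T cells that carry FOXP3 and hold back immune responses. They came by sorting from Foxp3-GFP mice, with no other allele named (WT in the titles), and the age of the mice is not given. The FcCD70 group received beads against CD3 and CD28, the cytokines IL6, IL23 and IL1B, and FcCD70, a soluble CD70 that binds the costimulatory receptor CD27. The untreated group had the same beads and cytokines without FcCD70, so no group without the cytokines stands beside them. Messenger RNA was sequenced on day 6, from 3 FcCD70 libraries (numbered 1 to 3) and 4 untreated libraries (numbered 1 to 4) with values used here, out of 4 samples a group in the labels. The study asked how transcripts of such cells change when CD27 is engaged. The titles and the treatment field of the labels contradict each other in all 8 samples. The titles were taken as right, and if the treatment field is right instead, each direction given here turns round.

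In Th17 cells, IL-6, IL-23 and IL-21 activate STAT3, which enters the nucleus and drives Th17 genes. BATF, a factor of the AP-1 family, and IRF4, a factor induced by the T cell receptor, bind DNA together and open sites before the lineage factors arrive. RORA, a nuclear receptor of the ROR family, then acts directly at the IL-17 genes. MAF tunes the program and drives IL-10, and BHLHE40 favours GM-CSF production and restrains IL-10. Tregs also use several of these factors, STAT3, IRF4, BATF and MAF among them, in the specialised forms that hold back Th17 and other effector responses.

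The DNA just before RefSeq start sites of the 2 IL-17 genes is shown because it is where binding letters of these factors can be looked for beside the transcript values. Sequences are RefSeq promoter windows of the build GRCm38.p6, 5′ to 3′ in the direction of the gene, without bases inside annotated exons. Capitals mark exact matches, on either strand, to a letter pattern of a factor. The Il17a window lies at chr1:20730655-20730904 on the plus strand, and the Il17f window at chr1:20784271-20784494 on the minus strand. The Il17f window lies inside the gene span given below (20777146 to 20790617), so it precedes a RefSeq start only. Irf4, the factor whose FcCD70 values lay lower in 3 of 3 pairs of equal number (below), is shown with them, at chr13:30748983-30749225 on the plus strand.
Il17a: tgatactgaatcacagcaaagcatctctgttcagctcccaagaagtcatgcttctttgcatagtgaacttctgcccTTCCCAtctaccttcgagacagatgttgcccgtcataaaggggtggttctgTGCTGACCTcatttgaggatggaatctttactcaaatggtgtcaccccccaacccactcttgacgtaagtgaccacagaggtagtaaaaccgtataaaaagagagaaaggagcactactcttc
Il17f: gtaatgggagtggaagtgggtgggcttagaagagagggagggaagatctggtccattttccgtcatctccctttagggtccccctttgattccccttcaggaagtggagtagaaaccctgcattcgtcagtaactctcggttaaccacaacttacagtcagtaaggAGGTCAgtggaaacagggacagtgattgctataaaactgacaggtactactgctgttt
Irf4: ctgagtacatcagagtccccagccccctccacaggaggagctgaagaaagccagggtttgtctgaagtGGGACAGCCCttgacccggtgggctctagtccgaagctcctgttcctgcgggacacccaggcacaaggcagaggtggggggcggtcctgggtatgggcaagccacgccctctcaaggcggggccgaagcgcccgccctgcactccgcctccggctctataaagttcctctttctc

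AGGTCA, the core letters of a ROR response element, occurred once in each IL-17 window, on the minus strand before Il17a and on the plus strand before Il17f. It occurred in 14.0% of the 32851 RefSeq windows of 250 bases before a start site. In the Il17a window this match runs into TGCTGA, letters of a MAF recognition element found in 16.1% of windows, and the matches share 3 letters. The third match before Il17a was TGGGAA, letters bound by RBPJ (21.6% of windows), read on the minus strand as TTCCCA. The single match in the Irf4 window was to a loose NF-kB pattern (17.6% of windows). No match in the IL-17 windows was found to TGACTCA (AP-1, with its reverse TGAGTCA, 4.46% of windows), TTCNNNGAA (STAT, 7.02%), CACGTG (bound by BHLHE40, 6.02%) or a paired IRF element (2.98%). Of the other factors with a window, Rora had no match, Batf had TGGGAA and Stat3 had TGCTGA. A match says only that the letters are there.

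The libraries held 18159685 to 23527899 reads assigned to genes, and each member had between 628 and 10391 reads in every library, so counting error was small beside the spread between libraries. Separate mice are not named for the samples, so the spread that p-values rest on may be technical. The FcCD70 library numbered 2 stood apart on the second principal component of the tested genes (46.7, against -11.8 to -5.13 in the other 6 libraries), and it is given with and without below. On the first component the libraries numbered 1 and 2 (-30.3 to 0.754) lay apart from those numbered 3 and 4 (18.6 to 24.6). The defining markers went with the label: 5 T cell genes summed to 3000 to 3098 RPM (reads scaled to library size) in FcCD70 libraries and 2954 to 3121 in untreated ones, and 5 Treg genes to 1980 to 2547 and 2200 to 2635. The lowest Treg sum was that of the FcCD70 library numbered 2. Genes of CD8 T cells (2), B cells (4), myeloid cells (3), NK cells (2) and red cells (1) each summed to at most 13.5 RPM, and Ncr1 of NK cells was at 0 in every library.

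Per length, the 6 transcripts fell into 3 levels. On the RPKM scale (reads per kilobase of exon, scaled to library size), Batf averaged 48.1 ± 6.59 and Stat3 45.7 ± 4.33 (SD, n = 7 libraries). Maf averaged 22.7 ± 3.14 and Bhlhe40 21.4 ± 4.54, and Irf4 averaged 8.99 ± 2.02 and Rora 8.42 ± 1.68. Within each of these pairs of neighbours the difference was smaller than the SD between libraries. Between the levels the ranges did not overlap: the lowest Stat3 library (38.2) was above the highest Bhlhe40 library (27.7), and the lowest Bhlhe40 library (16.6) above the highest Irf4 library (12.2). Foxp3, the Treg factor, averaged 56.7 on this scale, Il17f 7.77 and Il17a 3.74. Exon length was the union over all annotated transcripts, which lowers the level of a gene whose cells use a short form, and Rora, with 13071 bases, has the longest union of the 6.

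**Figure D1:**
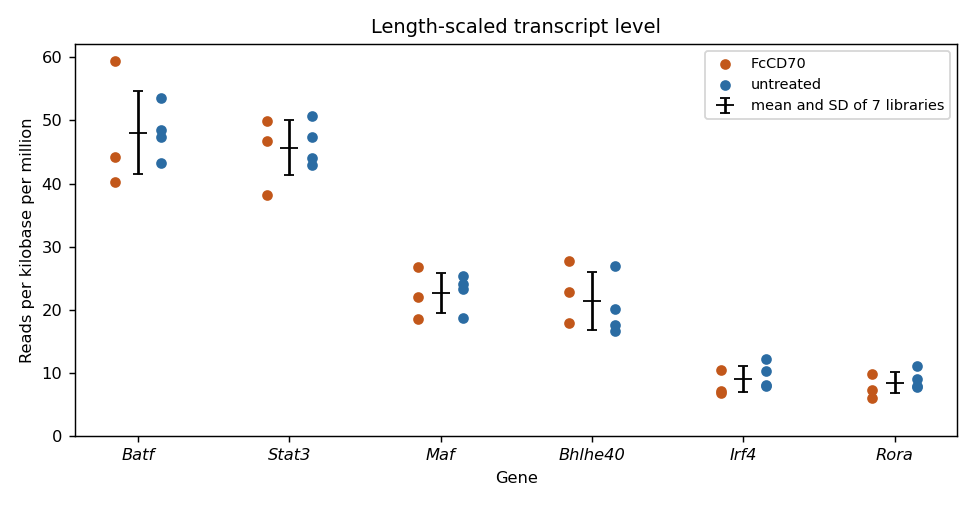
Length-scaled level of 6 Th17 factor transcripts, in RPKM, with 3 FcCD70 libraries left of 4 untreated libraries and the mean and SD of 7 libraries in black. Batf (48.1) and Stat3 (45.7) lie highest, Maf (22.7) and Bhlhe40 (21.4) between, and Irf4 (8.99) and Rora (8.42) lowest.

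Across libraries the factors varied far less than the IL-17 genes. The highest library held 1.30 times the normalized count of the lowest for Stat3, 1.43 times for Maf, 1.51 times for Batf, 1.62 times for Bhlhe40, 1.74 times for Irf4 and 1.78 times for Rora. For Il17a that ratio was 7.29, and for Il17f 15.5. In coefficients of variation the factors ran from 8.52% (Stat3) to 21.1% (Irf4), against 63.5% for Il17a and 67.9% for Il17f, both of which are low-count genes by comparison.

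None of the 6 factors passed the threshold between FcCD70 and untreated libraries. With all 7 libraries the largest difference among them was in Irf4, which was lower with FcCD70 in all 3 same-numbered pairs. The only positive estimate was that of Bhlhe40, higher in all 3. The other 4 had pairs on both sides of 0. The test was limma on log2(normalized count + 1) with the replicate number as a block, which leaves 2 residual degrees of freedom and draws its fold changes from 3 pairs, and a gene was called at a Benjamini-Hochberg adjusted p under 0.05. Of all genes tested 0% (0 of 11083) were called, with 188 (1.7%) at an unadjusted p under 0.05, Irf4 the 1 member among them. With edgeR on the recovered reads 0% (0 of 11083, 168 unadjusted) were called and with DESeq2 0.00902% (1 of 11083, which was Il17f, 141 unadjusted), and no member by any of these tools. Of the 6, 5 had a log2 fold change below 0 and 1 above it, with a median of -0.033, against 50.9% below 0 and a median of -0.0035 over all genes tested. Without both libraries numbered 2 the 6 split 3 and 3, with a median of -0.050. For 0 of the 6 the FcCD70 libraries lay wholly below or wholly above the untreated ones, where 1.18% and 1.34% of all genes tested did. In bulk samples such as these, fewer cells that carry a transcript and less of it per cell cannot be told apart.

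**Figure D2:**
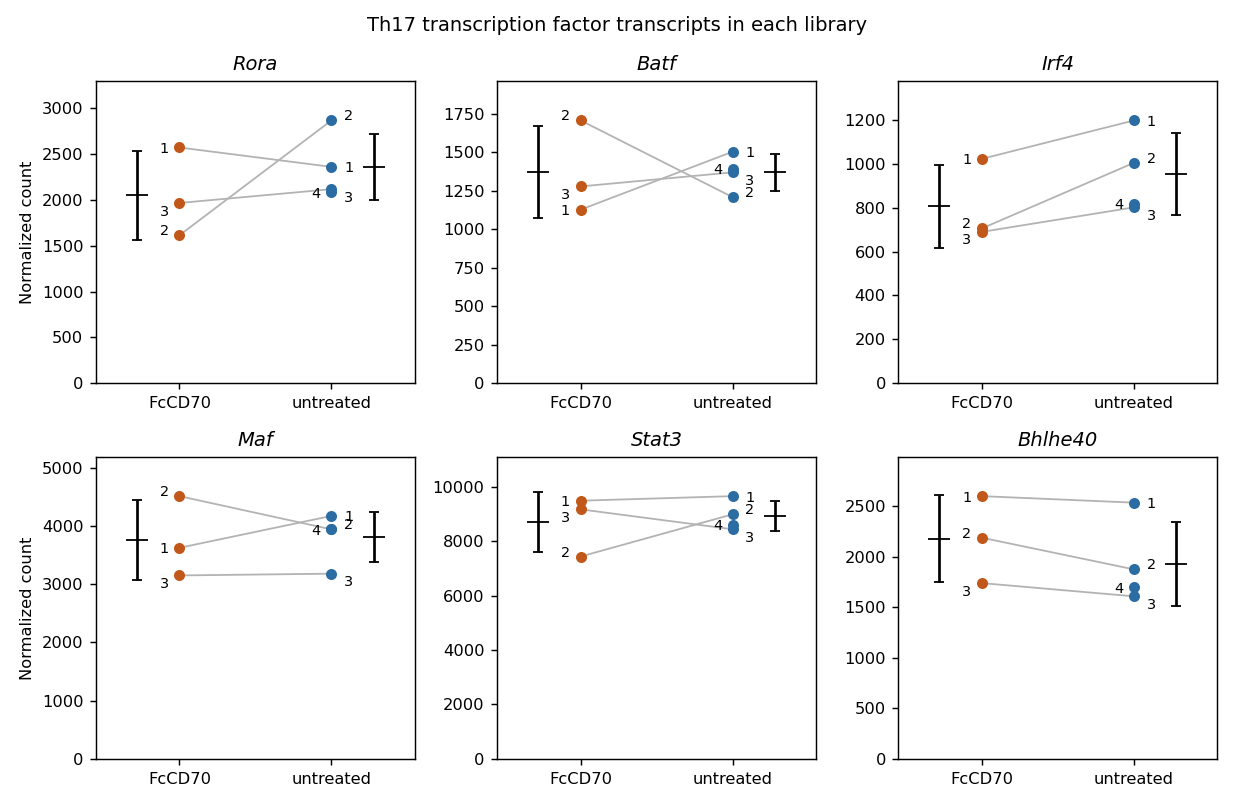
Normalized count of each Th17 factor in each library, with FcCD70 (orange) left of untreated (blue), library numbers beside the points, grey lines joining same-numbered libraries, and the mean and SD of each group in black (n = 3 FcCD70, n = 4 untreated). The lines of Irf4 lie lower at their FcCD70 end in 3 of 3 pairs and those of Bhlhe40 higher in 3 of 3, and the groups overlap for every gene shown.

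STAT3, the factor that carries the IL-6, IL-23 and IL-21 signal, had the most even transcript. Stat3 (ENSMUSG00000004040, chromosome 11, 100885098 to 100939540, GRCm38) had 9481, 7431 and 9163 normalized counts in the FcCD70 libraries numbered 1 to 3, against 9648, 8982, 8432 and 8604 in the untreated libraries numbered 1 to 4. The FcCD70 library numbered 2 was the lowest of the 7 and the other 2 lay within the untreated range. The log2 fold change was -0.060 (SE 0.14, 95% interval -0.36 to 0.24, limma adjusted p = 0.9998), and it was 0.047 without both libraries numbered 2. Exons of Stat3 overlap those of Stat5a on the opposite strand. It is not known here whether the counting used strand, so the overlap may have changed the counts of both, in a direction not known.

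Batf and Irf4 encode the AP-1 and IRF factors that open Th17 sites together, and neither passed the threshold. Batf (ENSMUSG00000034266, chromosome 12, 85686669 to 85709087) had 1128, 1707 and 1279 normalized counts in the FcCD70 libraries, against 1504, 1209, 1370 and 1394 in the untreated ones. The highest and the lowest of the 7 values were both FcCD70 libraries, numbered 2 and 1, and the log2 fold change was -0.0057 (95% interval -0.40 to 0.39). Without both libraries numbered 2 it was -0.26 (limma adjusted p = 0.562). Irf4 (ENSMUSG00000021356, chromosome 13, 30749226 to 30766976) had 1022, 705 and 690 normalized counts in the FcCD70 libraries, against 1197, 1004, 801 and 816 in the untreated ones. The FcCD70 libraries numbered 2 and 3 were below all untreated libraries and the one numbered 1 was above 3 of the 4, so the groups overlapped.

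For Irf4 the log2 fold change was -0.32 (SE 0.14, 95% interval -0.63 to -0.0064). Its unadjusted p in limma was 0.0463, rank 167 of the 11083 genes tested, and its adjusted p was 0.9998. An unadjusted p this low in the lower direction was seen in 1.1% of all genes tested, and a value lower in 3 of 3 pairs in 9.61%, and in each case Irf4 was the 1 member of 6. The differences were -0.23, -0.51 and -0.22 (log2) between the libraries numbered 1, 2 and 3. The unadjusted p was 0.0390 in edgeR and 0.0706 in DESeq2, and in the authors' deposited table, over 8 libraries, Irf4 had a DESeq2 p of 0.0266 and an adjusted p of 0.99999 (log2 fold change 0.29, coded as untreated over FcCD70). Irf4 kept its negative sign in 22 of 22 alternative fits, but several of these could not turn it. Other filters and leaving out the number 4 gave the same -0.32. With 3 of 3 pairs lower, a blocked limma fit without 1 number stays negative. Without both libraries numbered 2 that fit gave Irf4 -0.22 (limma unadjusted p = 0.0807, adjusted p = 0.835). Batf lay further below 0 there, at -0.26 (limma unadjusted p = 0.0182, adjusted p = 0.562). The size of the Irf4 difference rested on single libraries in fits without the block. There it was -0.13 without the untreated library numbered 1 and -0.15 without the FcCD70 library numbered 3. It was -0.17 without the FcCD70 library numbered 2, -0.22 without the untreated library numbered 2, and -0.25 with all 7. The estimate lay further below 0 without FcCD70 1 (-0.43), untreated 3 (-0.33) or untreated 4 (-0.32).

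RORA, the nuclear receptor among the members, had the widest spread of the 6 by highest over lowest library. Rora (ENSMUSG00000032238, chromosome 9, 68653786 to 69388246) had 2572, 1614 and 1967 normalized counts in the FcCD70 libraries, against 2360, 2867, 2117 and 2082 in the untreated ones. The libraries numbered 2 held both extremes, lowest with FcCD70 and highest untreated, and the other libraries overlapped. The log2 fold change was -0.27 (SE 0.18, 95% interval -0.67 to 0.13, limma adjusted p = 0.9998), and without both libraries numbered 2 it was 0.0087. Its size rested on that pair.

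MAF and BHLHE40, which act on IL-10 and GM-CSF as well as on the IL-17 program, gave values on opposite sides or near 0. Maf (ENSMUSG00000055435, chromosome 8, 115682942 to 115707794) had 3622, 4509 and 3148 normalized counts in the FcCD70 libraries, against 4169, 3938, 3178 and 3938 in the untreated ones. As for Batf, FcCD70 libraries were the highest (numbered 2) and the lowest (numbered 3) of the 7, and the log2 fold change was -0.0073 (95% interval -0.30 to 0.28). Bhlhe40 (ENSMUSG00000030103, chromosome 6, 108660629 to 108666925) had 2601, 2189 and 1740 normalized counts in the FcCD70 libraries, against 2536, 1876, 1609 and 1700 in the untreated ones. Each FcCD70 library was above the untreated library of its number, by 0.036, 0.22 and 0.11 (log2) for the numbers 1, 2 and 3, while the groups overlapped. The log2 fold change was 0.12 (SE 0.12, 95% interval -0.15 to 0.40, limma adjusted p = 0.9998). Of all genes tested 9.03% were higher in 3 of 3 pairs, and Bhlhe40 was the 1 member of 6. Maf, Rora and Bhlhe40 overlap exons of gene models on the other strand, so the limit given for Stat3 holds for them too.

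**Figure D3:**
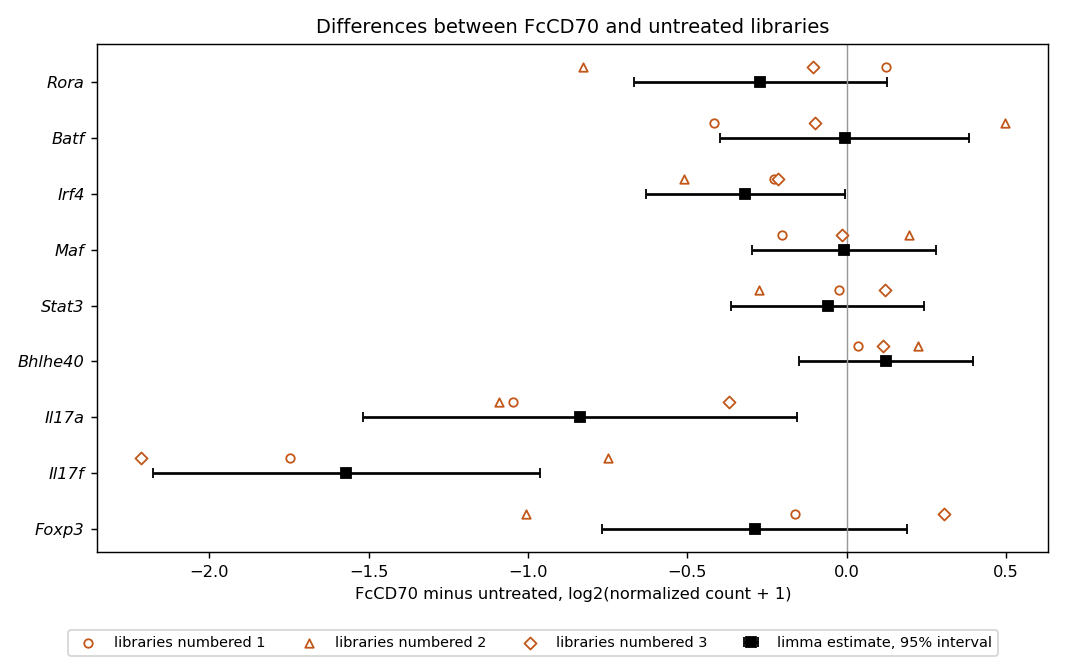
FcCD70 minus untreated difference in log2(normalized count + 1) for the 6 Th17 factors, Il17a, Il17f and Foxp3, with the limma estimate and its 95% interval as squares and bars and the differences between same-numbered libraries as open symbols. The intervals of the factors lie within -0.67 to 0.40, and the estimates of Il17a (-0.84) and Il17f (-1.57) lie below those of all 6 factors.

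By replicate number, Bhlhe40 was the 1 factor whose libraries numbered 1 and 2 lay apart from those numbered 3 and 4. Its 4 libraries numbered 1 and 2 had 1876 to 2601 normalized counts and its 3 libraries numbered 3 and 4 had 1609 to 1740, so they did not overlap. This split was noticed in these data and is a description. Of all genes tested 11.1% were higher in the libraries numbered 1 and 2 without overlap and 11.1% lower, against 1 and 0 of the 6 factors. Such a split was thus common among all genes. Irf4 averaged 982 in the libraries numbered 1 and 2 and 769 in those numbered 3 and 4, and Maf 4060 and 3421, with overlap in both. A limma F test of the replicate numbers, in the fit that also holds the treatment, called 0.135% (15 of 11083) of all genes and 0 of the 6 factors. An unadjusted p under 0.05 in this limma F test was reached by 8.02% of all genes and by 2 of the 6 factors. These were Bhlhe40, with a limma adjusted p of 0.376, and Irf4, with 0.525. These calls depended on the libraries numbered 2. Without the FcCD70 library of that number the F test called 16.5% of the genes tested (1828), with 4 of the 6 factors (Rora, Irf4, Maf and Bhlhe40) among them. Without the untreated library of that number it called 38.6% (4269), with all 6. Leaving out 1 library leaves its number with a single library, so that library and its number cannot be told apart. In the fit without the untreated library numbered 2, this is the FcCD70 library that stood apart above. In the other 4 fits with 1 library left out it called 84 to 145 genes and 0 of the 6.

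The FcCD70 library numbered 2 lay below the mean for some factors and above it for others. It was the lowest of the 7 for Rora and Stat3 and the highest for Batf and Maf, 2 of the 6 factors each way. Of all genes tested 28.4% and 27.3% had their lowest and highest value in it, so such extremes were not particular to the factors. On the scale of deviations from each gene's mean (log2), it lay at -0.44 for Rora, -0.31 for Irf4, -0.24 for Stat3, 0.13 for Bhlhe40, 0.26 for Maf and 0.33 for Batf. Foxp3 lay at -0.87 there, with 2788 normalized counts, while the FcCD70 libraries numbered 1 and 3 had 5881 and 5948 and the untreated ones 4811 to 6585. The untreated library numbered 2 lay on the other side of the mean for Rora (0.39), Irf4 (0.20), Batf (-0.17), Bhlhe40 (-0.094) and Stat3 (0.031), and on the same side for Maf (0.068). The sum of the 5 Treg genes was lowest in the FcCD70 library numbered 2 (1980 RPM), and its part in these values was not tested.

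**Figure D4:**
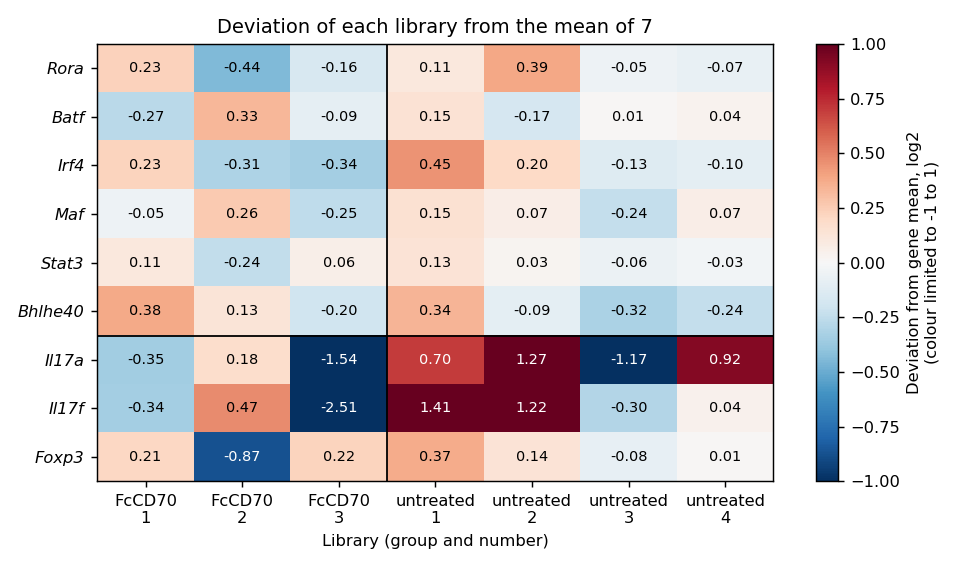
Deviation of each library from the gene's mean over 7 libraries in log2(normalized count + 1), printed in each cell and coloured from blue (below) to red (above), with FcCD70 libraries left of untreated ones, Th17 factors above the upper line and Il17a, Il17f and Foxp3 under it. The FcCD70 library numbered 2 is at -0.44 for Rora and -0.87 for Foxp3 but at 0.33 for Batf, and the FcCD70 library numbered 3 is at -2.51 for Il17f.

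The IL-17 transcripts that these factors act on were lower with FcCD70 in all 3 pairs. Il17f (ENSMUSG00000041872, chromosome 1, 20777146 to 20790617) had 191, 335 and 41.4 normalized counts in the FcCD70 libraries, against 642, 563, 196 and 248 in the untreated ones. Il17a (ENSMUSG00000025929, chromosome 1, 20730905 to 20734496) had 55.9, 80.9 and 23.8 in the FcCD70 libraries, against 117, 174, 31.1 and 136 in the untreated ones. For both genes the FcCD70 library numbered 3 was the lowest of the 7, and the groups overlapped. For Il17a the untreated library numbered 3 lay below 2 FcCD70 libraries, and for Il17f the untreated libraries numbered 3 and 4 lay below the FcCD70 library numbered 2. Neither passed limma over all genes (adjusted p = 0.9998 for each), with log2 fold changes of -1.57 for Il17f and -0.84 for Il17a. Il17f passed the same limma fit without both libraries numbered 2 (-1.98, adjusted p = 9.3e-11) and without both numbered 3 (-1.25, adjusted p = 0.0180). It did not pass without both numbered 1 (-1.48, limma adjusted p = 0.422) or without the untreated library numbered 4 (-1.57, limma adjusted p = 0.9998). The fits without the number 1, 2 or 3 each rest on 2 pairs, so their p-values lean on the variance that limma shares across genes. Those that passed called 19 and 6 genes in all. In the authors' deposited table, over 8 libraries, Il17f had a DESeq2 adjusted p of 0.211. Its log2 fold change there was 1.19, coded as untreated over FcCD70. With 1 library left out of the fit without the block, where the log2 fold change was -1.39 for Il17f and -1.0 for Il17a with all 7, Il17f was -0.53 and Il17a -0.51 without the FcCD70 library numbered 3. Il17a was -1.53 without the untreated library numbered 3.

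Pair by pair, Il17f differed by -1.75, -0.75 and -2.22 (log2) between the libraries numbered 1, 2 and 3, and Il17a by -1.05, -1.09 and -0.37. Over the same numbers Irf4 differed by -0.23, -0.51 and -0.22, Rora by 0.12, -0.83 and -0.11, and Stat3 by -0.025, -0.27 and 0.12. Maf differed by -0.20, 0.20 and -0.014, Batf by -0.42, 0.50 and -0.10, and Bhlhe40 by 0.036, 0.22 and 0.11. In the pairs numbered 1 and 3 Il17f lay further below 0 than each of the 6 factors, and in the pair numbered 2 Rora lay further below 0 than Il17f.

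How the factors followed Il17a and Il17f across libraries could be described but not tested. The libraries fall apart by number, with 4 and 3 libraries, and same-numbered libraries may share a source, so no correlation is given. Among the 3 libraries numbered 3 and 4, the order from high to low was untreated 4, untreated 3 and FcCD70 3 for Il17a (136, 31.1 and 23.8 normalized counts) and Il17f. Maf (3938, 3178 and 3148), Irf4 (816, 801 and 690) and Batf (1394, 1370 and 1279) kept this order, and Rora, Stat3 and Bhlhe40 did not. Over 3 libraries few orders are possible, and the smaller step of each of the former was small beside the spread between libraries. The share of all genes that kept this order was not counted, so it shows no relation. Among the 4 libraries numbered 1 and 2, Il17f ran from untreated 1 and untreated 2 down to FcCD70 2 and FcCD70 1. None of the 6 factors kept that order: Irf4 was highest in untreated 1 and lowest in FcCD70 2, and Maf was highest in FcCD70 2 and lowest in FcCD70 1. Maf and Irf4 shared with Il17f their lowest library of the 7, FcCD70 3, and the share of all genes that did so was not counted.

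**Figure D5:**
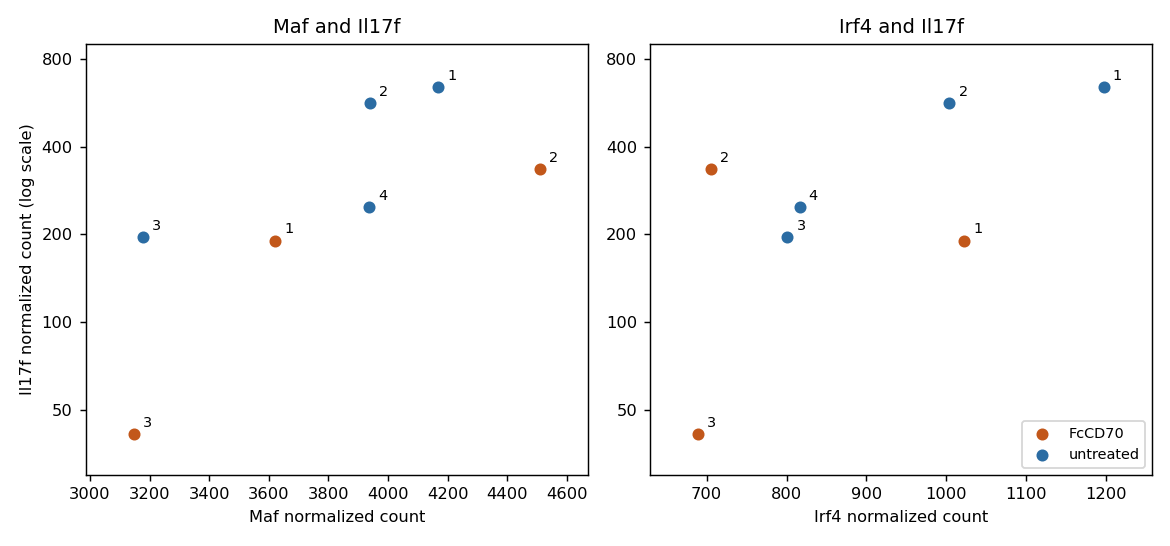
Normalized count of Il17f (log axis) against that of Maf (left panel) and Irf4 (right panel) in 3 FcCD70 and 4 untreated libraries, with library numbers beside the points. The FcCD70 library numbered 3 is lowest on both axes in each panel (Il17f 41.4, Maf 3148, Irf4 690), and the FcCD70 library numbered 2 is highest for Maf (4509) and next to lowest for Irf4 (705).

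The genes whose pattern over the 7 libraries was most like that of each factor were found by Pearson r of log2(normalized count + 1) among 9528 tested genes with a mean of at least 50. For Rora they were Smarcd1 (r = 0.993) and Ift140 (r = 0.987), for Batf Creb3 (r = 0.993) and Pex11a (r = 0.990), and for Irf4 Wdr19 (r = 0.990) and Zfp384 (r = 0.981). For Maf they were Gadd45b (r = 0.984) and Anapc13 (r = 0.982), for Stat3 Top3b (r = 0.996) and Hinfp (r = 0.995), and for Bhlhe40 Tspyl4 (r = 0.984) and Tmem110 (r = 0.976). The 7 points share their normalization and the 2 library effects above, and many genes were alike: 45 had r over 0.9 with Maf and 397 with Stat3. Top3b, a topoisomerase, had 1932, 1284 and 1794 normalized counts in the FcCD70 libraries, against 2003, 1768, 1630 and 1642 in the untreated ones, lowest like Stat3 in the FcCD70 library numbered 2. Gadd45b, a stress-induced gene, had 272, 413 and 193 in the FcCD70 libraries, against 327, 322, 208 and 287 in the untreated ones, highest like Maf in that library.

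Other genes of the pathways were read in the same fit, and 0 in any list passed the threshold in either direction (0% of all genes tested). Of 10 Th17 effector genes 9 were tested, 8 lay below 0 and 1 (Il10, an anti-inflammatory cytokine) above, with a median of -0.51. Without both libraries numbered 2 this list had 9 of 9 below 0 (median -0.57), where 49.6% of all genes lay below 0. Of 15 partner factors 8 lay below and 7 above 0 (median -0.036). Among them, and named after their values were seen, were Ahr, the aryl hydrocarbon receptor (-0.21), Hif1a, the hypoxia factor (0.19), and Ikzf3, which encodes Aiolos (-0.45). Ikzf3 had 4896, 2255 and 3667 normalized counts in the FcCD70 libraries, against 5996, 4909, 3496 and 4083 in the untreated ones, and its value was -0.11 without both libraries numbered 2. Of 10 tested factors that restrain Th17 cells, Foxp3 had the smallest p (log2 fold change -0.29, 95% interval -0.77 to 0.19), and 4 lay below and 6 above 0.

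The downward lean of the inputs to STAT3 rested on the pair numbered 2, and that of the Notch pathway genes did so in part. All 7 receptor and kinase genes upstream of STAT3 lay below 0 (median -0.080), but 2 of 7 did without both libraries numbered 2 (median 0.047). Il6st, which encodes the shared receptor chain gp130 and had the smallest p of these 7, had 5556, 3534 and 5538 normalized counts in the FcCD70 libraries, against 5225, 5635, 5519 and 5771 in the untreated ones. The 7 tested Notch pathway genes lay below 0 as well (median -0.13), and 5 did without both libraries numbered 2 (median -0.011). Notch1, a Notch receptor gene and the one with the smallest p there, had 3497, 2411 and 4445 in the FcCD70 libraries, against 4020, 3869, 4059 and 3779 in the untreated ones. Dtx1 and Nrarp, low-count genes of the Notch list named after their values were seen, did not rest on that pair. Their log2 fold changes were -0.54 and -0.24 with all 7 libraries, and -0.52 and -0.39 without both libraries numbered 2. Of 9 genes from the IL-1 receptor to NF-kB, 6 lay below and 3 above 0 (median -0.083). Il1rap, the accessory chain of the IL-1 receptor, had the smallest p of these, at -0.31 (log2, 95% interval -0.70 to 0.079), and lower values in 3 of 3 pairs. Of 7 STAT3-responsive genes 3 lay below and 4 above 0 (median 0.035), and Il21, the cytokine that feeds back on STAT3, had the smallest p (log2 fold change -0.51, 95% interval -1.11 to 0.098, lower in 3 of 3 pairs). Of 10 tested paralogs of the factors 5 lay below and 5 above 0 (median -0.016).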

How the data were processed

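An Illumina TruSeq mRNA kit that marks strand was used, per the labels' protocols. The submitters' processing notes name GRCm38.p4, HTSeq, TopHat2, DESeq2 and SAMtools without saying what each did. How the counting treated strand, and with which annotation, is not given in the sources used here. The deposited library columns hold signal: read counts scaled by the authors with a size factor per library, as the values show, 100% of which were whole multiples of 1 step (within 0.01). A further deposited column averages it over 8 libraries. The deposited log2 fold changes, score (the Wald statistic) and p-values come from DESeq2, per the file headers, with untreated over FcCD70 as coded.

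No column was used for FcCD70 sample 4, so 7 libraries entered the fits. The table is named as a paired analysis, hence the replicate block. The untreated library numbered 4 has no partner and adds nothing to a blocked fold change. Limma (3.58.1, with a trend) was run on log2(value + 1), which understates fold changes of low genes. EdgeR (4.0.16) and DESeq2 (1.42.0) were run on the recovered reads as alternatives, with other pseudocounts, filters, scalings and left-out libraries. The fits were also run on simulated data with larger differences than those of the members and no outlying library. That run does not show how they behave on libraries such as these. The plan had named 8 samples and counts as another possible unit.

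Members and gene lists were chosen with earlier results of these data known. Named genes are all members, Il17a, Il17f, Foxp3, the gene with the smallest p of each list that is not a member, and 2 most alike genes a member. Some genes taken by this rule are not reported here. Gene positions and exon lengths are from GENCODE M21 (GRCm38), and promoter windows from RefSeq (4 of the 6 members and both IL-17 genes matched).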

Additional observations from a re-analysis of the deposited data

How the results depend on the processing

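Over 22 alternatives no member was called between FcCD70 and untreated libraries, and Irf4 (-0.43 to -0.13) and Bhlhe40 (0.039 to 0.33) kept their sign. Several of these fits could not turn a sign, since other filters left the estimates unchanged and both genes had 3 of 3 pairs on 1 side. With both libraries of 1 number left out of the blocked fit, Rora ran from -0.47 to 0.0087, Batf from -0.26 to 0.20, Maf from -0.11 to 0.091, Stat3 from -0.15 to 0.047 and Foxp3 from -0.59 to 0.071. With 1 library left out of the fit without the block, other signs turned: Batf was 0.11 without FcCD70 1, 0.024 without FcCD70 3 and 0.031 without untreated 1, and Maf was 0.094 without FcCD70 3 and 0.020 without untreated 1. Stat3 (0.066) and Foxp3 (0.11) turned without FcCD70 2. A covariate for the number groups 1, 2 and 3, 4, added to that last fit after seeing the data, gave the same 0.066 and 0.11 and called 6 genes, Il17f among them. The count of genes called was 0 to 19 over the left-out libraries and 1 with DESeq2.

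Between replicate numbers the count of genes called was 15, and it was 0 with no filter on low values, 2 with TMM factors, 0 with edgeR, 117 with the rebuilt eighth library and 84 to 4269 when 1 library was left out. The cause was not tested. With 1 library left out its number is held by a single library, so library and number cannot be told apart. Without the replicate block 0 genes were called, and the log2 fold change was -0.25 for Irf4 and 0.18 for Bhlhe40. Same-numbered libraries deviated from their group means with correlations of 0.303, 0.0144 and 0.435 for the numbers 1, 2 and 3, so the values do not show that every number marks a pair.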

Other observations

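The labels name an FcCD70 sample numbered 4, and the authors' mean over 8 libraries allows normalized counts of an eighth library to be rebuilt by subtraction. The rebuilt library held 21031069 reads, and 100% of its values were whole multiples of 1 step. That it is the FcCD70 sample numbered 4 rests on the labels alone. Irf4 had 702 normalized counts in the rebuilt library and 816 in the untreated library numbered 4 (log2 difference -0.22), and Bhlhe40 had 1750 in the rebuilt and 1700 in the untreated one (0.042). The difference was -0.042 for Rora, 0.0081 for Batf, -0.075 for Maf and 0.029 for Stat3. Il17a had 63.8 in the rebuilt and 136 in the untreated library (-1.08), and Il17f 229 in the rebuilt and 248 in the untreated library (-0.12). In limma with this library added and the replicate block, the log2 fold change was -0.29 for Irf4 and 0.10 for Bhlhe40, and neither passed (adjusted p = 0.977 for each). In that limma fit Il17f was at -1.21 and did not pass either (adjusted p = 0.977).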
